A study of Rattus norvegicus with 24 samples.

Results

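How adult and neonatal rats differ in spinal gene expression after the same nerve injury was examined in the dorsal horn. The 12 arrays of injured animals, 6 from adults and 6 from neonates, were taken by their titles from the 24 arrays of the series, and all 15866 non-control probe sets entered the comparison. All rats were Sprague-Dawley. They had spared nerve injury (SNI) under isoflurane: of the branches of the sciatic nerve, the common peroneal and the tibial were tied and cut, and the sural was left alone. Dorsal horn of the operated side was studied 7 days later. The adults were 8 to 12 weeks old, and the neonates, labelled postnatal day 10, stayed with their mothers after surgery. Whether that day refers to the operation or to the tissue is not given, nor whether an array held tissue of 1 animal or of several. A further 6 adult and 6 neonate arrays came from sham-operated rats of the same ages, in which the sciatic nerve was exposed and left whole. They served as the control for age alone, and they share no array with the injured groups.

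The dorsal horn receives the sensory fibres of the sciatic nerve. When such fibres are cut, microglia, the resident macrophages of the central nervous system, divide and change their gene expression in the part of the dorsal horn where the fibres end. Microglia carry receptors for immunoglobulin and complement, and activated cells can present antigen on MHC class II proteins. In the first weeks after birth the cord is also still maturing: axons are being myelinated, synapses are refined and blood vessels and meninges are still growing and laying down extracellular matrix. A direct comparison of injured adults with injured neonates therefore holds both the difference that age makes in any animal and any difference in how the tissue answers injury. The sham arrays separate them.

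Values are log2 expression per probe set, so that a difference of 1 is a doubling. The median value of the 12 SNI arrays ran from 5.58 to 5.67 log2, and 59.8% to 60.4% of the probe sets exceeded 3.84 log2, the level used as a filter. Arrays of one age correlated at 0.990 to 0.998 and arrays of different ages at 0.984 to 0.994, and no pair held identical values. Adult SNI array 3 and neonate SNI array 3 stood apart from the other 10 on the second principal component, at -27.2 and -28.4 against -5.56 to 12.0. Gad1, the enzyme that makes GABA, lay at 10.26 to 11.03 log2 on all 12 arrays. Not every marker of dorsal horn neurons passed the filter level. Of 15 measured excitatory markers 2 never passed it on an SNI array, and of 13 inhibitory markers 3 never did. Of 19 measured T cell genes 17 never passed that level on an SNI array, and the T cell receptor component Cd3d lay at 2.09 log2, the lowest value of the data, on all 12. Chat, the motor neuron enzyme, reached 6.01 and 6.19 log2 on adult SNI arrays 2 and 4 and stayed between 3.43 and 3.79 log2 on the other 4 adult arrays. Motor neuron genes varied among neonates too. Averaged over the 3 tested, neonate SNI arrays 1 and 3 held 5.73 and 6.17 log2, and the other neonate SNI arrays 3.40 to 4.59 log2. Adult SNI arrays 2 and 4 held 6.99 and 6.79 log2 by that average.

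After injury the adult and neonatal dorsal horn differed in 1 probe set of every 5 tested. Of 9638 probe sets 2010 differed at a limma adjusted p under 0.05, which is 20.9%, with 898 higher and 1112 lower in adults. At the level of genes, each represented by its brightest probe set, 1514 of 7006 differed (21.6%), with 677 higher (9.66%) and 837 lower (11.9%). Of the 2010, 44.7% were higher, a share that was 53% of 1957 with each array centred on its median and 49.7% of 2036 after quantile normalization, so neither direction led under every scaling. At larger sizes higher calls were more numerous: 183 probe sets were called and at least 2-fold higher against 102 that were 2-fold lower, and 39 against 11 at 4-fold. In 861 probe sets the 6 adult and 6 neonate values did not overlap, and 835 of these were among the 2010 called. The median over all genes tested was -0.05 log2, and it is given here as the level against which the medians of gene groups can be read.

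Most of this difference was present without injury. In sham animals 1573 probe sets differed between the ages (16.3%), and 1153 genes (16.5%). Of the 1573, 46.0% were higher in adults, a share that was 57.2% of 1576 when each array was centred on its median. The 2 comparisons shared 1208 probe sets called with the same sign, which is 60.1% of the calls after SNI and 76.8% of those in sham. Of the 2010 probe sets called after SNI, 1983 had the same sign in sham. Across all 9638 probe sets the 2 sets of differences correlated at r = 0.860 (Spearman 0.817), a description over probe sets, which are not independent replicates. A further 801 probe sets passed the test only after SNI and 364 only in sham, but a call in one comparison and not in the other does not show a difference between them. The direct test of that difference, the age difference after SNI minus the age difference in sham, passed for 22 probe sets (0.228%), and 238 had an unadjusted p under 0.05. All 22 were positive and all were higher in injured adults. Some passed the filter only on injured adult arrays, which left little room for a negative sign. Of the 22, 15 were among the 801. In 6 of the remaining 7 the adult excess was already called in sham and was wider after SNI. The last, whose annotation holds several genes and which is left unnamed, was lower in adult than in neonate sham tissue, at 4.62 against 5.07 log2, and higher after SNI, at 5.87 against 4.94 log2 (adjusted p of the dependence 4.4e-06).

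**Figure D1:**
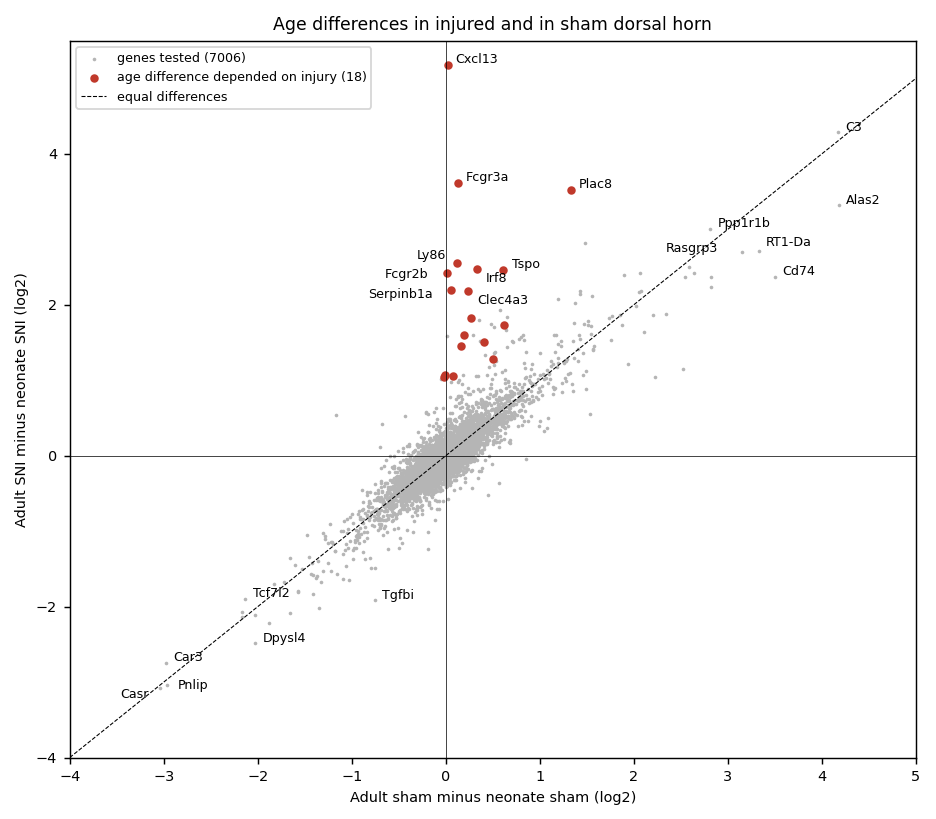
Difference between adult and neonate for each of 7006 genes, in sham animals on the x axis and after SNI on the y axis, both in log2; the dashed line marks equal differences. Most genes lie along the line, C3, Pnlip and Casr among them, while the 18 red genes, whose difference depended on injury, lie above it, with Cxcl13 highest at 5.18 log2 after SNI and 0.02 in sham.

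The age difference depended on injury for 18 genes by their brightest probe set, 0.257% of the 7006 tested. Of the 18, 8 were among the 21 tested members of the microglia and macrophage list: Fcgr3a, Ly86, Fcgr2b, Irf8, Cd37, Plek, Cd53 and Cyba. Cxcl13, Fcgr3a, Ly86, Fcgr2b, Irf8, Clec4a3 and Rac2 passed the filter only through the injured adult arrays. The filter thus fixed their direction after SNI and left little room for a negative dependence. Pycard lay above the filter level on 1 adult sham array besides the injured adults, so it too needed the injured adult arrays to pass. In bulk tissue, fewer cells of a type and less RNA per cell cannot be told apart. For 4 of the 18 genes a stretch of the promoter is shown, because the same 8 letters stand in each of them. The sequences are those of RefSeq on the GRCr8 assembly, in windows around the annotated start, and 13 of the 18 genes had an entry. GAGGAAGT, a form of the motif bound by the myeloid transcription factor PU.1, is printed in capitals as it reads on the opposite strand.
Cd37, chr1:104860735-104861034, minus strand: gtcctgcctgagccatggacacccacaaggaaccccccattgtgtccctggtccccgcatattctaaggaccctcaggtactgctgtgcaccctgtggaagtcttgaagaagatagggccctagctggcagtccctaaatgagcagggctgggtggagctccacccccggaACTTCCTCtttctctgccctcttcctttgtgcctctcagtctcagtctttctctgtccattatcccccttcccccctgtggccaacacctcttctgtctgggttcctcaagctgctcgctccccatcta
Cd53, chr2:197087847-197088146, minus strand: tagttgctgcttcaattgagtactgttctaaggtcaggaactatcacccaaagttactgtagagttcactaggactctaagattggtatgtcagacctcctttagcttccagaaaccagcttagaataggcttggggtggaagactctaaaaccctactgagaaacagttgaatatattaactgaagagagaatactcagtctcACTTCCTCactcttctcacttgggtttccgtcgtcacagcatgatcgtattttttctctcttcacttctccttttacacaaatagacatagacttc
Fcgr3a, chr13:85782386-85782685, plus strand: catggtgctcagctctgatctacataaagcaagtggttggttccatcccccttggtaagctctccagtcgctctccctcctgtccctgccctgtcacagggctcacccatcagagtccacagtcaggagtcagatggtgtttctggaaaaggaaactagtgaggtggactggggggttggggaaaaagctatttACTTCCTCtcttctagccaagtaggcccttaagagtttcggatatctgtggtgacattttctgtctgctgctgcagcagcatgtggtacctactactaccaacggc
Serpinb1a, chr17:31799196-31799495, plus strand: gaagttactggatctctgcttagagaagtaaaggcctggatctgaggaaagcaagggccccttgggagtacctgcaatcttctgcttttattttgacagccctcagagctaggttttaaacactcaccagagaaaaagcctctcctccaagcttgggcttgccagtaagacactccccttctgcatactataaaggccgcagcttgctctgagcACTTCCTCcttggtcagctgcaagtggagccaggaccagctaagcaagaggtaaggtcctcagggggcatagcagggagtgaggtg
The letters end 71, 38, 48 and 28 bases before the annotated starts of Cd37, Cd53, Fcgr3a and Serpinb1a. On either strand GAGGAAGT occurred in 4 of the 13 promoters, against 2.07% of the 6513 promoters of tested genes and 2.42% of all 33469. The shorter GAGGAA, contained in it, occurred in 7 of the 13 (25.4% of tested genes), and the overlapping AGGAAG in 10 (32.1%). The motif of AP-1 factors, TGACTCA, occurred in 0 of the 13 (3.33%). An interferon response pattern, GAAA followed by any 2 letters and GAAA again, occurred in 2, Grn and Fcgr3a (2.44%). These motifs were chosen after the genes were known, and a match is a description of the letters, not evidence of binding.

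Cxcl13, a chemokine that attracts B cells, showed the largest age difference of any gene after injury. The 6 adult SNI arrays held 7.04, 6.60, 8.77, 7.94, 6.35 and 6.89 log2, and all 6 neonate SNI arrays held 2.09 log2. Every injured adult was therefore high and every injured neonate was at the lowest value of the data. Sham arrays lay at 2.09 to 2.24 log2 in adults and at 2.09 log2 in neonates. Cxcl13 was at least 10.8-fold higher in injured adults (difference 5.18 log2, SE 0.25, limma adjusted p = 2.3e-13). The difference depended on injury (5.15 log2, SE 0.35, limma adjusted p = 5.4e-10). Cxcl13 passed the filter only through the injured adult arrays, so its direction was set and these p-values are no separate support for it. Each SE pools all 4 groups, and the groups other than injured adults held almost no spread. The words at least mark genes that all arrays of the lower group held under the filter level; the fold then sets the higher mean against the level itself.

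The receptors for immunoglobulin G followed the same pattern. Fcgr3a, an activating receptor, had a lowest, median and highest value of 5.41, 5.90 and 6.71 log2 in injured adults and of 2.09, 2.33 and 2.62 log2 in injured neonates. It was at least 4.35-fold higher in adults (difference 3.61 log2, SE 0.14, adjusted p = 3.9e-15), against a difference of 0.14 log2 in sham. Fcgr2b, the inhibitory receptor of the family, had 4.80, 5.35 and 5.62 log2 in injured adults and 2.43, 2.85 and 3.53 log2 in injured neonates. It was at least 2.70-fold higher in adults (adjusted p = 5.2e-11). No adult or neonate sham array lay above the filter level for either receptor, so the injured adults were the only group in which both were measured above it. The filter had thereby set the direction of both, and their p-values are no separate support for it.

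Genes of pattern recognition and of the myeloid programme were next. Ly86, which partners a homologue of the Toll-like receptors, ran from 5.72 to 6.57 log2 (median 5.94) in injured adults and from 3.39 to 3.77 log2 (median 3.52) in injured neonates, at least 4.74-fold higher (adjusted p = 1.3e-13). Irf8, a transcription factor that microglia need for their development and activation, ran from 4.96 to 6.21 log2 (median 5.60) against 2.75 to 3.41 log2 (median 3.12), at least 3.40-fold higher (adjusted p = 5.4e-11). The lectin receptor Clec4a3 was at least 2.99-fold higher (adjusted p = 2.4e-08), with 4.59 to 5.95 log2 against 2.81 to 3.69 log2. The groups did not overlap in any of the 3. Their dependence on injury was 2.44, 2.14 and 1.94 log2 (adjusted p = 5.4e-10, 2.4e-06 and 0.00058).

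Pycard, the adaptor protein of inflammasomes, and Rac2, a small GTPase of blood and microglial cells, were dimmer but showed the same order. Pycard was at least 2.28-fold higher in injured adults, at 4.39 to 5.79 log2 against 3.54 to 3.58 log2 (dependence adjusted p = 0.0021). Rac2 was at least 2.31-fold higher, at 4.50 to 5.68 log2 against 3.11 to 3.81 log2 (dependence adjusted p = 0.00087). In both genes every injured adult lay above the filter level and every injured neonate below it. Both needed the injured adult arrays to pass the filter, so their p-values are no separate support for the direction.

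Other members were also measured in injured neonates. Serpinb1a, an inhibitor of neutrophil proteases, ran from 6.60 to 7.49 log2 (median 6.99) in injured adults and from 4.67 to 5.10 log2 (median 4.74) in injured neonates, a difference of 2.19 log2 (SE 0.11, adjusted p = 2.5e-13). The neonate values were close to those of both sham groups, 4.51 to 4.69 log2 in adults and 4.39 to 4.69 log2 in neonates. Tspo, a mitochondrial membrane protein used as a marker of activated microglia in imaging, ran from 7.90 to 8.96 log2 (median 8.46) against 5.63 to 6.42 log2 (median 6.02), a difference of 2.47 log2 (SE 0.21, adjusted p = 8.2e-09). Adult sham array 1 stood at 7.09 log2, above all neonate SNI arrays. The tetraspanin Cd37 ran from 5.46 to 6.27 log2 against 3.96 to 4.10 log2, a difference of 1.82 log2 (adjusted p = 4.6e-10).

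Plac8, a small protein of myeloid and other immune cells, differed from the genes above in that its adult excess was already called in sham. It ran from 7.45 to 8.54 log2 (median 8.11) in injured adults and from 3.87 to 5.43 log2 (median 4.57) in injured neonates, a difference of 3.52 log2 (SE 0.30, adjusted p = 7.6e-09). In sham the difference was 1.34 log2 (adjusted p = 0.0031), and the dependence on injury was 2.19 log2 (SE 0.43, adjusted p = 0.018). With no filter on dim probe sets, and so with more tests to adjust for, its adjusted p was 0.0568.

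The remaining 6 genes differed by smaller amounts, again with no overlap between the injured groups. Grn, the lysosomal growth factor progranulin, ran from 10.80 to 11.68 log2 in injured adults and from 9.82 to 10.24 log2 in injured neonates (difference 1.04 log2, SE 0.13, adjusted p = 3.5e-06), with a sham difference of -0.02 log2. Ifi30, a lysosomal thiol reductase used in antigen processing, differed by 1.06 log2 after SNI and 0.08 log2 in sham. The tetraspanin Cd53 differed by 1.51 log2 after SNI and 0.41 log2 in sham, and Plek, the phosphoprotein pleckstrin, by 1.73 and 0.62 log2. The dependence of Plek on injury had an adjusted p of 0.014, and of 0.0659 without the 4 arrays numbered 3. Cyba, a subunit of the NADPH oxidase of phagocytes, differed by 1.07 log2 after SNI and -0.0036 log2 in sham. Tmem176a, a membrane protein, differed by 1.28 and 0.50 log2. The dependence of these last 2 was near the threshold: the adjusted p was 0.045 for Cyba and 0.031 for Tmem176a, and it passed 0.05 without any single one of 19 and 13 of the 24 arrays, reaching 0.0974 and 0.0801.

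**Figure D2:**
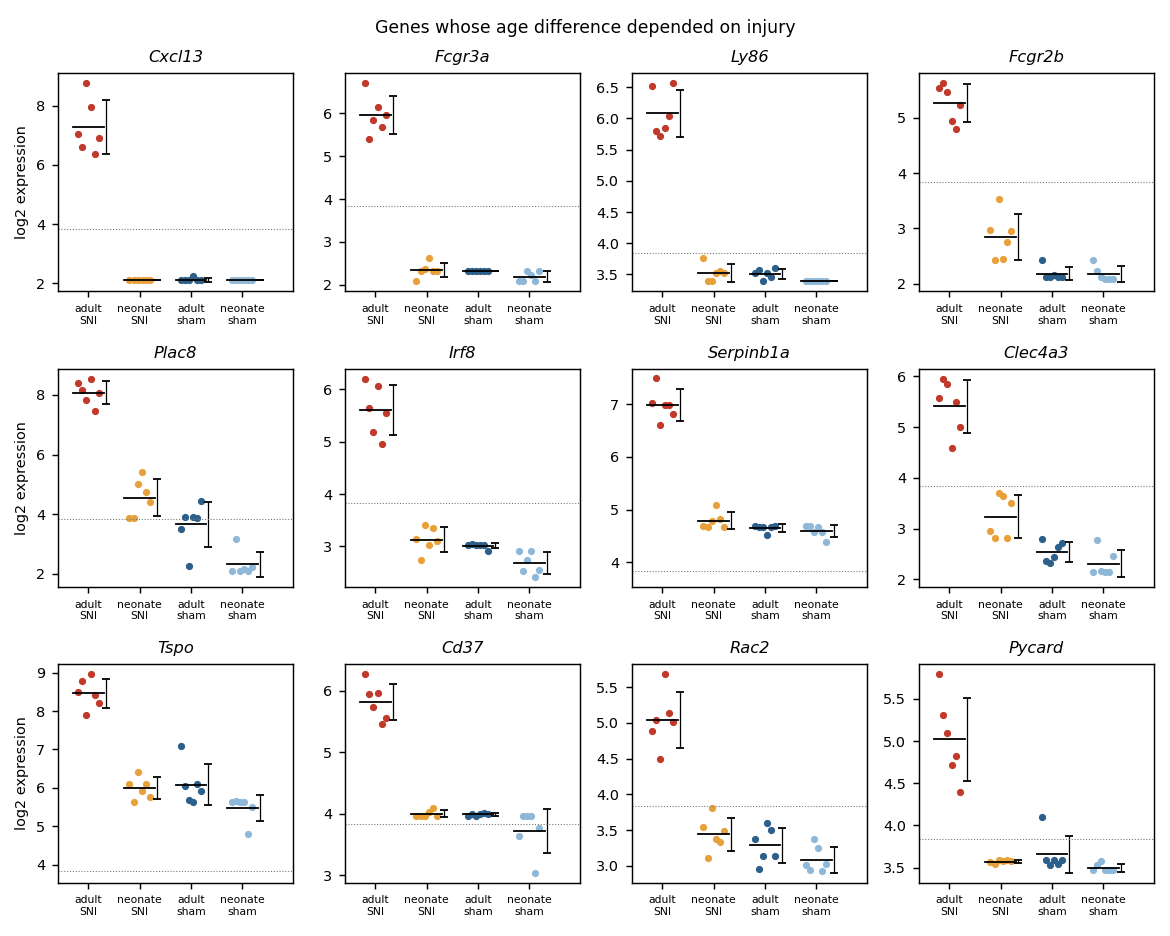
Log2 expression of 12 genes on every array of the 4 groups (points), with the group mean (line) and SD (bar, n = 6); the dotted line marks the filter level, 3.84 log2, and each panel has its own scale. In all 12 panels the injured adults lie above the other 3 groups, and in 7 of them (Cxcl13, Fcgr3a, Ly86, Fcgr2b, Irf8, Clec4a3 and Rac2) no array of the other groups lies above the filter level.

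Over the whole microglia and macrophage list, 17 of 21 tested members were higher in injured adults and 0 lower, against 9.66% higher among all genes. Of the 21, 4 (Fcgr3a, Ly86, Fcgr2b and Irf8) passed the filter only on injured adult arrays, which fixed their direction. The median difference over the list was 1.51 log2 after SNI and 0.33 log2 in sham. It was 1.43 log2 after SNI with genes below the filter level in neonates set at their bound. Averaged over the list, injured adult arrays ran from 7.02 to 7.41 log2 and injured neonates from 5.48 to 5.86 log2, without overlap. Aif1, the microglial calcium-binding protein Iba1, had a lowest value of 8.16 log2 in injured adults against a highest of 7.91 log2 in injured neonates (difference 1.33 log2, SE 0.17, adjusted p = 2.3e-06). Csf1r, the receptor for the growth factor on which microglia depend, differed by 1.21 log2 (SE 0.15, adjusted p = 2.4e-06). The dependence on injury did not pass the test for either gene. That of Aif1 passed only without neonate SNI array 3 (limma adjusted p = 0.04).

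The 4 members not called included receptors that mark resting microglia. P2ry12, a purine receptor of the resting state, ran from 7.09 to 8.30 log2 (median 7.27) in injured adults and from 7.10 to 8.05 log2 (median 7.49) in injured neonates, a difference of -0.04 log2 (SE 0.20, adjusted p = 0.91). Tmem119, another resting marker, differed by 0.08 log2 (SE 0.28, adjusted p = 0.87). Its neonate SNI array 5 held 5.62 log2, and the other neonate SNI arrays 3.32 to 4.00 log2, around the filter level. With single arrays left out its limma adjusted p ran from 0.19 to 0.976. The test gives no evidence of an age difference for these genes, and their SE leaves room for one. Cx3cr1, the fractalkine receptor, ran from 4.02 to 5.80 log2 in injured adults, and neonate arrays held 3.34, 3.24, 3.21, 3.21, 5.48 and 4.62 log2. Its difference of 1.02 log2 had an adjusted p of 0.0588, which became 0.00684 without neonate SNI array 5, 0.0338 without adult SNI array 3, 0.0404 without neonate SNI array 6 and 0.04 without adult sham array 6. Besides the genes of the naming rule, P2ry12, Tmem119, Csf1r, Ptprc, Col4a1, Col4a2 and 5 of the injury-dependent genes were chosen after their values were seen.

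Complement and antigen presentation were higher in injured adults too, but for several leading genes the excess was as large in sham. C3, the central complement protein, ran from 10.43 to 11.51 log2 (median 11.25) in injured adults and from 6.31 to 7.58 log2 (median 6.83) in injured neonates. It was 19.5-fold higher in injured adults (difference 4.29 log2, SE 0.31, adjusted p = 4.6e-10), with a sham difference of 4.17 log2 (adjusted p = 1.3e-09). The lowest adult SNI array, at 10.43 log2, still lay above the highest neonate. Adult sham tissue, at 6.46 to 8.57 log2 (median 8.28), overlapped injured neonatal tissue and had the higher median. In the complement list 5 of 7 tested members were higher (71.4%, against 9.66% of all genes) and 0 lower. The median of the list was 1.55 log2 after SNI and 0.69 log2 in sham.

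Of those 5, 3 were chains of C1q, the first component of the classical pathway. C1qa ran from 11.59 to 12.46 log2 against 9.98 to 10.85 log2, C1qb from 8.87 to 10.04 log2 against 7.73 to 8.32 log2 and C1qc from 9.73 to 10.49 log2 against 7.96 to 8.85 log2. The groups did not overlap in any of them. Their differences were 1.55, 1.66 and 1.80 log2 after SNI (adjusted p = 1.0e-05, 0.00027 and 3.9e-05) and 0.77, 0.64 and 0.35 log2 in sham. The dependence on injury did not pass the test for any chain (adjusted p = 1, 1 and 0.27). Cd59b, an inhibitor of the complement pore, was 0.82 log2 higher in injured adults and 0.69 log2 higher in adult sham.

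All 7 tested members of the MHC class II list were higher in injured adults, against 9.66% of all genes, with a median of 1.07 log2. Of the 7, 1 lay below the filter level in all injured neonates. Cd74, the invariant chain that guides class II proteins, ran from 8.60 to 10.19 log2 (median 9.37) in injured adults and from 6.20 to 7.69 log2 (median 7.06) in injured neonates, a difference of 2.37 log2 (SE 0.39, adjusted p = 8.7e-05). In sham the difference was 3.50 log2, with neonates at 3.66 to 5.93 log2, and the dependence of -1.13 log2 had an adjusted p of 1. RT1-Da, a class II chain of the rat, differed by 2.71 log2 after SNI (SE 0.41, adjusted p = 3.0e-05) and by 3.33 log2 in sham. Its values were widely spread in injured adults, 7.57 to 9.94 log2. For both genes adult sham tissue held more than neonatal injured tissue by the median, 8.32 against 7.06 log2 for Cd74 and 7.29 against 5.90 log2 for RT1-Da. Ctss, the cathepsin that trims the invariant chain, differed by 0.96 log2 after SNI and 0.63 log2 in sham.

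In the MHC class I list 6 of 8 tested members were higher (75%, against 9.66% of all genes) and 0 lower, with a median of 0.74 log2. Psmb8, a subunit of the immunoproteasome that cuts peptides for class I, ran from 5.58 to 7.84 log2 (median 6.63) against 3.24 to 4.36 log2 (median 3.84). It was 7.04-fold higher (difference 2.82 log2, SE 0.31, adjusted p = 3.6e-07), with a sham difference of 1.48 log2. The dependence on injury, 1.34 log2, had an adjusted p of 0.68, and of 0.00387 when values under the filter level were raised to it. B2m, the light chain of class I proteins, differed by 0.77 log2 after SNI and 0.59 log2 in sham (adjusted p = 3.6e-06 and 0.00014). RT1-M3-1, a class I gene, differed by 0.82 and 0.70 log2.

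All 8 tested members of the interferon response list were higher in injured adults, against 9.66% of all genes. Their median was 1.32 log2 after SNI and 0.99 log2 in sham. With the 3 members that lay below the filter level in all injured neonates set at their bound, the median after SNI was 0.98 log2. Such members reached the test through other arrays, so the filter leaned the count of 8 toward higher. Ifitm3, a membrane protein that restricts virus entry, ran from 8.99 to 9.55 log2 against 7.80 to 8.11 log2 (difference 1.21 log2, SE 0.14, adjusted p = 1.0e-06), with 1.15 log2 in sham. Stat2, a transcription factor of the type I interferon response, differed by 0.95 log2 after SNI and 0.83 log2 in sham. Its other probe set differed by 0.28 log2 after SNI and was not called (limma adjusted p = 0.0796). Bst2, a protein that tethers budding viruses, was at least 1.80-fold higher, and 1 of its 6 adult SNI values, 5.96 log2, stood above the others at 4.24 to 4.60 log2. Rsad2, an interferon-induced enzyme that is no member of the list, was at least 3.57-fold higher in injured adults (adjusted p = 1.9e-05) with a sham difference of 2.07 log2.

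The cytokine and chemokine list was mostly too dim to test: 17 of 28 measured genes never passed the filter level on an SNI array. Among the 8 tested, 4 were higher and 1 lower, 50% and 12.5% against 9.66% and 11.9% of all genes. Cxcl13, 1 of the 4, passed the filter only on injured adult arrays. The median was 0.46 log2. After Cxcl13, Il18, an inflammasome product, had the largest difference, at 6.09 to 6.92 log2 in injured adults and 3.74 to 5.18 log2 in injured neonates (1.93 log2, SE 0.22, adjusted p = 6.8e-07). In sham it differed by 0.58 log2, and the dependence of 1.36 log2 had an adjusted p of 0.087, which fell to 0.0369, 0.0357 and 0.0293 without adult sham array 4, neonate SNI array 3 and neonate sham array 5. Cxcl16, a membrane-bound chemokine, differed by 0.78 log2 (adjusted p = 0.000255) with overlapping groups. Cx3cl1, the neuronal fractalkine, was the 1 member lower in injured adults, by -0.60 log2 (SE 0.14, adjusted p = 0.0034), at 9.82 to 10.27 log2 against 10.03 to 10.90 log2.

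Lysosomal genes were split. Of 27 tested 7 were higher (25.9%, against 9.66% among all genes) and 2 lower (7.41%, against 11.9%). Their median was 0.17 log2 after SNI and 0.06 log2 in sham. Ctsz, a cathepsin rich in microglia, ran from 8.46 to 9.43 log2 against 6.35 to 7.29 log2 (difference 2.18 log2, SE 0.24, adjusted p = 4.7e-07), with 1.43 log2 in sham. Npc2, which carries cholesterol out of lysosomes, differed by 1.11 log2 (adjusted p = 6.5e-08) and the cathepsin Ctsh by 0.90 log2 (adjusted p = 2.95e-06). Ctsl, a cathepsin of many cell types, was lower by -0.45 log2 after SNI and by -0.53 log2 in sham. Among markers of other leukocytes, the 1 tested T cell list gene, Coro1a, an actin-binding protein of all leukocytes, was 0.75 log2 higher in injured adults. The single neutrophil gene tested was not called, and the 1 B cell gene measured was too dim to test.

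**Figure D3:**
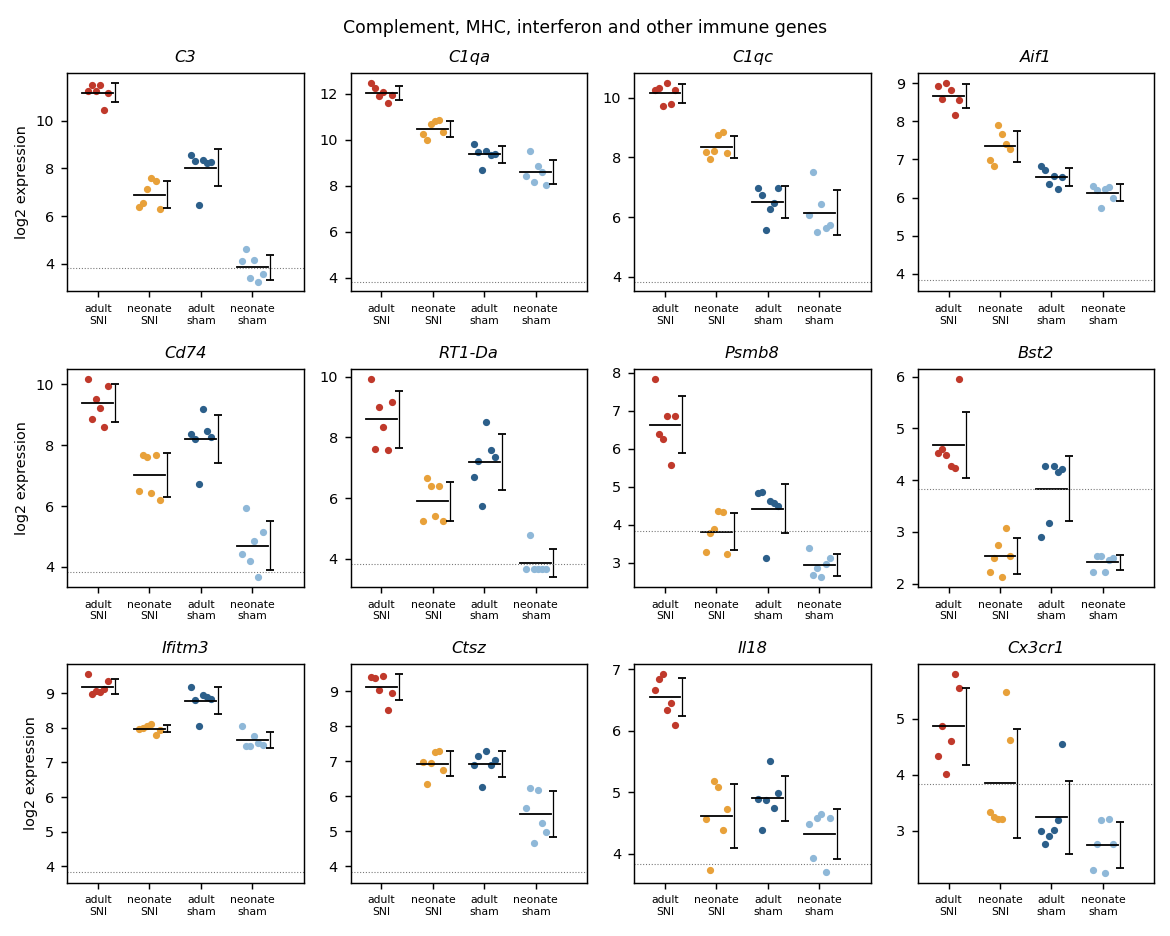
Log2 expression of 12 immune genes on every array of the 4 groups (points), with the group mean (line) and SD (bar, n = 6); the dotted line marks 3.84 log2 and each panel has its own scale. C3, Cd74 and RT1-Da separate the ages in sham as well as after SNI, while for C1qc, Aif1 and Il18 the wider gap is between the injured groups. The dependence on injury did not pass the test for any of these genes.

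Other leading genes were higher in adults whether injured or not. Ppp1r1b, the phosphatase inhibitor DARPP-32 of dopamine signalling, ran from 7.29 to 8.24 log2 against 3.70 to 5.75 log2 and was 8.06-fold higher (difference 3.01 log2, SE 0.33, adjusted p = 3.6e-07), with 2.81 log2 in sham. Rasgrp3, an activator of Ras proteins found in endothelium and lymphocytes, differed by 2.70 log2 after SNI and 3.15 log2 in sham. Aldh1a1, an enzyme of retinoic acid synthesis, differed by 2.50 and 2.59 log2, and Dao, the D-amino acid oxidase of astrocytes, by 2.42 and 2.64 log2. These 4 were named from genes called without overlap between the injured groups, so their separation was part of that choice. The limma adjusted p after SNI was 2.4e-08 for Rasgrp3, 1.7e-09 for Aldh1a1 and 1.65e-06 for Dao.

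Of 5 tested red cell genes 3 were higher in injured adults (60%, against 9.66% of all genes) and 0 lower. Hbb, a beta chain of haemoglobin, ran from 13.74 to 14.42 log2 in injured adults and from 11.53 to 13.47 log2 in injured neonates (difference 1.87 log2, SE 0.27, adjusted p = 1.5e-05), with 2.20 log2 in sham. Alas2, the haem synthesis enzyme of red cells, differed by 3.32 log2 after SNI and 4.18 log2 in sham. Neonate SNI array 4 had the highest neonate value of both, 7.80 log2 for Alas2 and 13.47 log2 for Hbb. The part of blood in the leukocyte genes described above was not tested. Slco1a4, a transporter of brain capillaries, differed by 1.85 log2 after SNI (SE 0.13, adjusted p = 2.55e-10) and 1.76 log2 in sham.

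The genes lowest in injured adults relative to neonates were likewise lower in sham. Among the 15 that led, 1 was lower in sham without passing the test there. Casr, the calcium-sensing receptor, ran from 2.40 to 3.06 log2 in injured adults and from 5.43 to 6.49 log2 in injured neonates, at least 4.11-fold lower (difference -3.07 log2, SE 0.19, adjusted p = 2.4e-11), with -3.04 log2 in sham. Pnlip, a gene named for the pancreatic form of lipase, ran from 6.79 to 7.56 log2 against 9.93 to 10.53 log2 and was 8.23-fold lower (difference -3.04 log2, SE 0.16, adjusted p = 9.3e-13). Car3, a carbonic anhydrase, was at least 3.27-fold lower, at 2.25 to 3.07 log2 against 5.21 to 6.06 log2. For Casr and Car3 every adult array of either treatment lay below the filter level and every neonate array above it.

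The other leading lower genes had varied roles. Dpysl4, one of the collapsin response proteins that regulate axon growth, ran from 5.59 to 6.34 log2 against 7.92 to 8.89 log2 and was 5.61-fold lower (difference -2.49 log2, SE 0.20, adjusted p = 1.7e-09). Rras2, a small GTPase, differed by -2.11 log2 (SE 0.11, adjusted p = 1.6e-12), and Tcf7l2, the Wnt effector that marks oligodendrocytes as they differentiate, by -1.90 log2 (adjusted p = 2.8e-06). The phosphatase Ptpro differed by -2.07 log2 (adjusted p = 4.8e-09), the ketone body enzyme Bdh1 by -2.14 log2 (adjusted p = 6.9e-07), Afap1l2, an actin-linked adaptor, by -1.79 log2 (adjusted p = 1.1e-08) and Emid1, a secreted protein with a collagen-like stretch, by -2.22 log2 (adjusted p = 4.5e-06). Their sham differences ran the same way, at -2.03 for Dpysl4, -2.03 for Rras2, -2.13 for Tcf7l2, -2.17 for Ptpro, -2.17 for Bdh1, -1.57 for Afap1l2 and -1.88 log2 for Emid1, and none of them depended on injury by the test.

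Tgfbi, a matrix protein induced by transforming growth factor beta, was the leading gene that did not pass the test in sham. It ran from 4.67 to 6.59 log2 (median 5.83) in injured adults and from 7.16 to 8.25 log2 (median 7.65) in injured neonates, a difference of -1.92 log2 (SE 0.45, adjusted p = 0.0030). In sham the groups overlapped, at 5.14 to 7.32 log2 against 4.45 to 7.88 log2, and the difference of -0.76 log2 did not pass the test (adjusted p = 0.27). The dependence on injury, -1.16 log2, had an adjusted p of 1, so the injured and sham differences of Tgfbi were not distinguished.

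Extracellular matrix formed the largest group of lower genes. Of 30 tested collagen, laminin and other matrix genes 17 were lower in injured adults and 0 higher, against 11.9% lower among all genes, with a median of -0.93 log2 after SNI and -0.71 log2 in sham. All but Col5a2 of these 17 were also lower in sham. Averaged over the list, injured adult arrays ran from 6.73 to 7.13 log2 and injured neonates from 7.67 to 7.94 log2, without overlap. No member depended on injury by the test.

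Among fibrillar collagens, Col1a1 ran from 7.01 to 7.88 log2 (median 7.66) in injured adults and from 8.37 to 9.22 log2 (median 8.86) in injured neonates, a difference of -1.35 log2 (SE 0.27, adjusted p = 0.00088). Col3a1 ran from 7.67 to 8.86 log2 against 9.48 to 10.20 log2 and was 3.14-fold lower (difference -1.65 log2, SE 0.31, adjusted p = 0.00042). Both had a smaller difference in sham, -0.80 and -1.03 log2, where the groups overlapped. Averaged over the matrix list, neonate sham array 3 was low, at 7.19 log2 against 7.625 to 8.083 log2 on the other neonate sham arrays. Col6a3, a chain of the beaded collagen VI, ran from 3.38 to 4.96 log2 against 5.78 to 7.28 log2 (difference -2.09 log2, SE 0.35, adjusted p = 0.00011).

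The list also holds genes of basement membranes, which sheathe vessels and the pial surface. Lama4, a laminin chain of blood vessels, ran from 3.62 to 4.56 log2 against 5.68 to 6.87 log2 (difference -2.02 log2, SE 0.22, adjusted p = 3.6e-07). Lamc1, the laminin chain common to most laminins, ran from 6.97 to 7.75 log2 against 8.60 to 9.09 log2 (difference -1.53 log2, SE 0.17, adjusted p = 5.4e-07). Nid2, which links laminin to collagen IV, ran from 5.92 to 6.25 log2 against 7.28 to 8.12 log2 (difference -1.80 log2, SE 0.20, adjusted p = 4.3e-07). The groups did not overlap in these 3 genes, a condition under which Lama4 and Nid2 were ranked among the 15 lowest.

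Collagen IV, the network-forming collagen of basement membranes, is made of chains whose 2 main genes lie head to head. Col4a1 ran from 6.54 to 7.31 log2 in injured adults and from 7.97 to 8.51 log2 in injured neonates (difference -1.26 log2, SE 0.20, adjusted p = 4.1e-05), with -1.18 log2 in sham. Col4a2 ran from 8.95 to 9.73 log2 against 9.28 to 10.62 log2 (difference -1.02 log2, SE 0.18, adjusted p = 0.00024), with -0.86 log2 in sham. The stretch that both promoter windows share is shown because the pair was lower together. It is 176 bases of RefSeq sequence on GRCr8, with the annotated starts 77 bases apart and transcribed away from each other, and 75% of its bases are G or C.
Col4a1 and Col4a2, chr16:84885471-84885646, plus strand: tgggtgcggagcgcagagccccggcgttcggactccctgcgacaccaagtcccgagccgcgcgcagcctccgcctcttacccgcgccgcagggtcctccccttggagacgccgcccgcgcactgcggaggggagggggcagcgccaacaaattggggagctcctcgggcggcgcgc

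**Figure D4:**
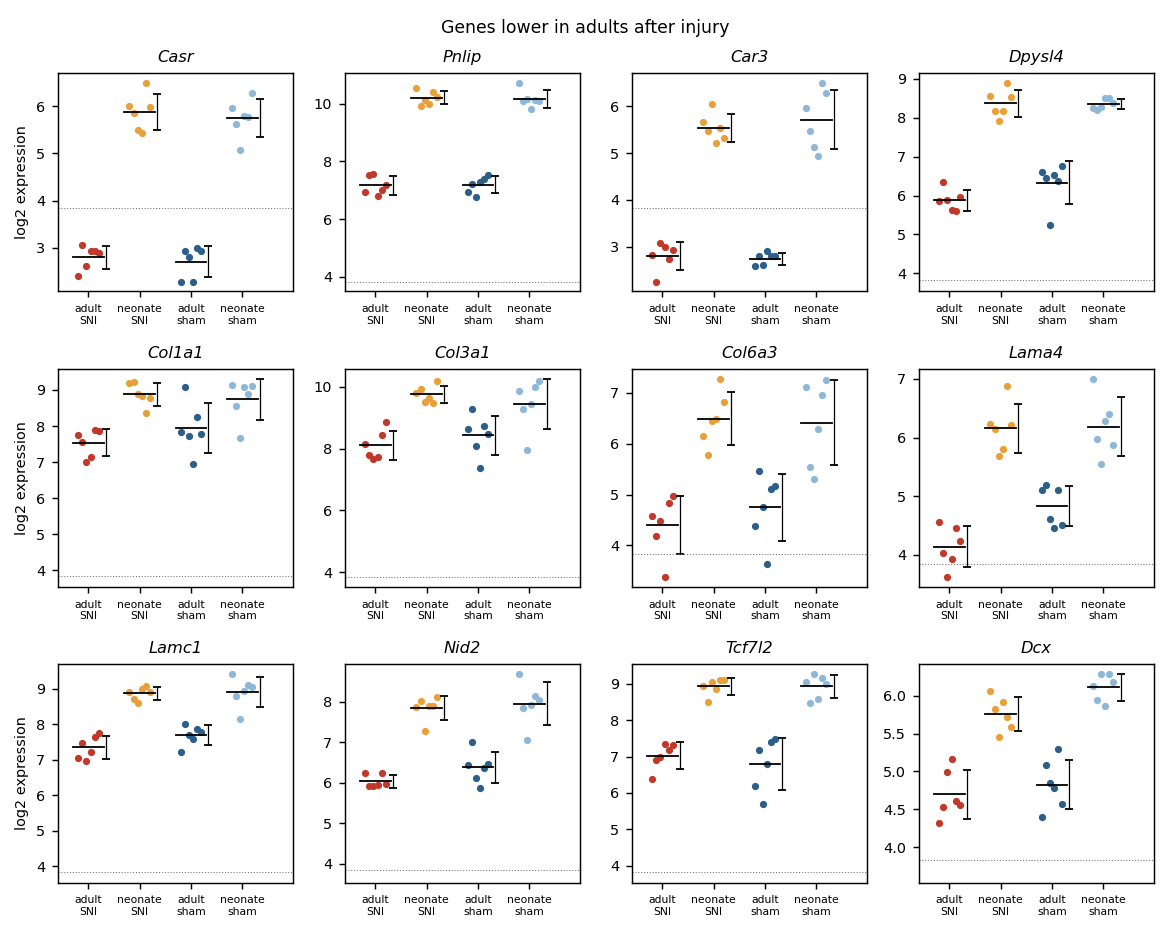
Log2 expression of 12 genes lower in injured adults, on every array of the 4 groups (points), with the group mean (line) and SD (bar, n = 6); the dotted line marks 3.84 log2 and each panel has its own scale. In each panel the 6 adult SNI values lie below all 6 neonate SNI values, and the sham groups stand in the same order by their means. Lack of overlap after SNI was a condition for ranking Casr, Pnlip, Car3, Dpysl4, Col6a3, Lama4, Nid2 and Tcf7l2 among the 15 lowest.

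Of 21 tested members of the immature neuron list 10 were lower in injured adults, 11 were not called and 0 were higher, against 11.9% lower among all genes, with a median of -0.45 log2 after SNI and -0.29 log2 in sham. Dcx, the microtubule protein doublecortin of young neurons, ran from 4.32 to 5.17 log2 against 5.45 to 6.06 log2 (difference -1.06 log2, SE 0.15, adjusted p = 1.2e-05), with -1.28 log2 in sham. Nrep, a protein of regenerating and developing neurons, differed by -1.30 log2 (SE 0.10, adjusted p = 1.8e-09), and Marcksl1, an actin-binding protein of growing cells, by -0.66 log2 (adjusted p = 3.1e-06). Stmn2, a protein of growth cones, differed by -0.29 log2 with an adjusted p of 0.0719, which fell to 0.0357 and 0.0276 without adult SNI arrays 2 and 4. Sox11, a transcription factor of immature neurons, was too dim to test.

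In the axon guidance list 5 of 19 tested genes were lower (26.3%, against 11.9% of all genes), 1 was higher and 13 were not called. Sema6a, a membrane semaphorin, differed by -1.004 log2 (SE 0.13, adjusted p = 2.5e-06) and Sema5a by -0.86 log2 (SE 0.16, adjusted p = 0.00046). Unc5b, a netrin receptor, was the 1 higher gene, by 1.14 log2 with overlapping groups (SE 0.30, adjusted p = 0.0091). In the list of Notch, Wnt and related signals 3 of 11 were lower (27.3%) and 1 higher (9.09%). Sfrp2, a secreted Wnt modulator, differed by -1.67 log2 (adjusted p = 0.00011) and the receptor Notch1 by -0.48 log2 (adjusted p = 0.0011). Among imprinted growth genes 2 of 10 were lower (20%), led by Grb10, an adaptor that dampens insulin signalling, at -0.79 log2 (adjusted p = 0.00054). Igf2, the imprinted growth factor, differed by -0.17 log2 (SE 0.17, adjusted p = 0.55). Of 32 measured cell cycle genes 19 never passed the filter level on an SNI array, Top2a among them. Of 10 tested 1 was higher and 1 lower, 10% each, near the 9.66% and 11.9% of all genes. These last 3 counts moved with single arrays. The signal list fell to 2 called without any one of adult SNI arrays 1, 2, 4 and 6 and neonate SNI arrays 3, 4 and 6, and the imprinted list to 1 called without any one of 13 arrays. The cell cycle list fell to 1 called without any one of adult SNI arrays 3, 4 and 5 and neonate SNI arrays 2 and 5.

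Of 20 tested astrocyte genes 4 were higher in injured adults (20%, against 9.66% of all genes), 16 were not called and 0 were lower. Their median was 0.23 log2 after SNI and 0.09 log2 in sham, against -0.05 and -0.03 log2 over all genes. Gfap, the astrocyte filament protein, ran from 14.40 to 14.81 log2 in injured adults and from 13.85 to 14.37 log2 in injured neonates (difference 0.39 log2, SE 0.09, adjusted p = 0.0039), with 0.36 log2 in sham. S100b, a calcium-binding protein, differed by 0.73 log2 (adjusted p = 0.00015) and Clu, the secreted chaperone clusterin, by 0.77 log2 (adjusted p = 9.4e-05). In the reactive astrocyte list, which also holds C3 and Gfap, 5 of 9 were higher. Vim, the filament protein vimentin of immature and reactive astrocytes and of vessels, was lower by -1.10 log2 (SE 0.24, adjusted p = 0.0015), at 8.82 to 9.79 log2 against 10.30 to 10.69 log2.

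Oligodendrocyte genes went in both directions. Of 20 tested myelin genes 6 were higher and 3 lower, 30% and 15% against 9.66% and 11.9% of all genes. Their median was -0.09 log2. Mbp, the myelin basic protein, lay at 14.86 to 15.21 log2 in injured adults and 14.88 to 15.25 log2 in injured neonates, a difference of 0.01 log2 (SE 0.08, adjusted p = 0.98). Qdpr, an enzyme of tetrahydrobiopterin recycling, was 1.41 log2 higher in injured adults (SE 0.11, adjusted p = 8.5e-10) and Plekhb1, a membrane-bound protein, 0.96 log2 higher (adjusted p = 1.5e-05). Mag and Cnp, components of the inner layers of myelin, were lower by -0.61 and -0.40 log2 (adjusted p = 0.0033 and 0.00091). Mobp, another myelin protein, was not called by its brightest probe set (0.10 log2), and its other 2 probe sets were called in opposite directions, -0.71 and 0.33 log2.

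Of 9 tested genes of oligodendrocyte precursors and newly formed oligodendrocytes 5 were lower (55.6%) and 1 higher (11.1%), with a median of -0.57 log2. Among all genes 11.9% were lower and 9.66% higher. Fyn, a kinase that starts myelination, differed by -1.04 log2 (SE 0.12, adjusted p = 1.1e-06), Enpp6, an enzyme of newly formed oligodendrocytes, by -0.64 log2 (SE 0.09, adjusted p = 1.3e-05) and Pdgfra, the growth factor receptor of precursors, by -0.57 log2 (SE 0.15, adjusted p = 0.0069). Cholesterol synthesis, which myelination draws on, had 5 of 17 genes lower (29.4%) and 0 higher, led by Dhcr7, the enzyme of the last step, at -0.96 log2 (adjusted p = 0.0001). Its count fell to 3 without any one of adult SNI arrays 3 and 5 and neonate SNI array 1. In the list of perineuronal net and related matrix genes 3 of 6 were lower (50%), led by the proteoglycan Bcan at -0.73 log2 (SE 0.09, adjusted p = 1.3e-06). A dimmer probe set of Bcan differed by 0.04 log2 and was not called. The count of 3 fell to 1 without any one of adult SNI array 2 and neonate SNI arrays 4 and 5.

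Of 22 tested pan-neuronal genes 5 were lower (22.7%, against 11.9% of all genes) and 0 higher, a count that fell to 2 without adult SNI array 2 and to 3 without any one of adult SNI array 5 and neonate SNI arrays 1, 4 and 6. The median, -0.03 log2, turned to 0.00 and 0.01 log2 under the 2 other scalings of the arrays. Snap25, a synaptic membrane protein, differed by 0.16 log2 (SE 0.09, adjusted p = 0.25) and Nefh, a neurofilament of large axons, by 0.24 log2 (SE 0.15, adjusted p = 0.28). Sncb, a synuclein of nerve terminals, differed by -0.46 log2 (SE 0.07, adjusted p = 1.3e-05) and Nrgn, a calmodulin-binding protein, by -0.94 log2 (SE 0.22, adjusted p = 0.0027). In the synaptic vesicle list 5 of 27 were lower (18.5%) and 1 higher, 6 calls that fell to 3 without neonate SNI array 2. Stx1a, the syntaxin of the release machinery, ran from 5.28 to 6.10 log2 against 6.57 to 7.90 log2 (difference -1.61 log2, SE 0.25, adjusted p = 3.2e-05).

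Of 21 tested glutamate receptor and scaffold genes 6 were lower (28.6%, against 11.9% of all genes) and 1 higher, 7 calls that fell to 4 without any one of adult SNI array 4 and neonate SNI arrays 2 and 6. Homer1 and Shank3, scaffold proteins of excitatory synapses, differed by -0.68 and -0.58 log2 (adjusted p = 0.0036 and 0.0043). Grm3, a metabotropic receptor also found on glia, was the 1 higher gene, at 1.30 log2 (SE 0.19, adjusted p = 1.8e-05). Grin2a, an NMDA receptor subunit, differed by -0.18 log2 (adjusted p = 0.45), and Grin2b was too dim to test. Of 19 GABA and glycine genes 2 were lower and 1 higher, 10.5% and 5.26% against 11.9% and 9.66% of all genes. These 3 calls fell to 0 without neonate SNI array 2 and to 1 without any one of adult SNI arrays 2 and 4 and neonate SNI array 6. Gad1 differed by 0.02 log2 (SE 0.13, adjusted p = 0.95), and Slc12a5 and Slc12a2, the chloride exporter KCC2 and importer NKCC1, by -0.06 and 0.19 log2 (SE 0.08 and 0.12, adjusted p = 0.63 and 0.27). Slc6a5, a glycine transporter, was not called in the main fit, nor with single arrays left out (limma adjusted p 0.101 to 0.413). With a replicate block fitted it differed by -1.15 log2 (limma adjusted p = 0.0193).

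Ion channel genes had 8 of 33 lower and 3 higher, 24.2% and 9.09% against 11.9% and 9.66% of all genes. Cacna1b, the N-type calcium channel of nerve terminals, ran from 7.59 to 8.13 log2 against 8.63 to 9.08 log2 (difference -0.87 log2, SE 0.13, adjusted p = 3.2e-05), and Scn4b, a sodium channel subunit, was higher by 0.80 log2 (SE 0.17, adjusted p = 0.0012). Of 13 markers of excitatory dorsal horn neurons 4 were lower (30.8%) and 0 higher. The count of 4 fell to 1 without adult SNI array 2 or 4 and rose to 8 without adult sham array 4. Among the 4 was Reln, the secreted protein reelin, at -0.53 log2 (SE 0.11, adjusted p = 0.00087). Its other probe set differed by -0.58 log2 and was not called (limma adjusted p = 0.109). Slc17a6, the vesicular glutamate transporter of these neurons, differed by -0.24 log2 (SE 0.08) and its adjusted p of 0.0375 passed 0.05 without any single one of 6 of the 24 arrays, adult SNI arrays 2, 4 and 5 and neonate SNI arrays 2, 4 and 6, reaching 0.1. Of 8 markers of inhibitory neurons 1 (12.5%), the calcium buffer Pvalb, was higher, by 0.62 log2 (adjusted p = 0.0060). In that list 2 were called without any one of adult SNI arrays 5 and 6, neonate SNI arrays 3 and 4 and adult sham arrays 5 and 6. Among 8 immediate early genes 3 were lower (37.5%), including Egr1 at -0.75 log2 (adjusted p = 0.010) and Egr2, also a transcription factor of myelinating Schwann cells, which was at least 2.16-fold lower.

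Among opioid, trophic and other pain-related genes 2 of 16 were higher and 2 lower, 12.5% each, near the 9.66% and 11.9% of all genes. Vgf, a secreted neuropeptide precursor, was 0.63 log2 higher in injured adults (SE 0.12, adjusted p = 0.00063) and -0.03 log2 different in sham, and the dependence of 0.66 log2 had an adjusted p of 0.24. Apln, the peptide apelin, was -0.59 log2 lower after SNI and -0.53 log2 lower in sham (adjusted p = 0.00021 and 0.00089). Its other probe set differed by -0.46 log2 after SNI and was not called (limma adjusted p = 0.098). Transcripts of sensory and peripheral nerve cells varied between arrays. Calca, a peptide of sensory and motor neurons, ran from 4.82 to 8.74 log2 in injured adults and from 2.31 to 7.26 log2 in injured neonates, a difference of 2.39 log2 with an SE of 1.001 (adjusted p = 0.0943, and 0.0409 without neonate SNI array 3). Reg3b, a lectin made by injured sensory neurons, ran from 2.85 to 7.27 log2 against 2.09 to 6.52 log2 (difference 1.59 log2, SE 0.75, adjusted p = 0.14, and 0.0298 and 0.0471 without adult SNI array 1 and neonate SNI array 3). By limma 0 of the 8 sensory and 3 motor neuron genes tested were called, and 3 sensory genes were called without neonate SNI array 3 and 1 without adult SNI array 1.

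Genes of vessels, muscle and the basic machinery of cells completed the lists. Endothelial genes had 3 of 13 higher (23.1%) and 2 lower (15.4%), against 9.66% and 11.9% of all genes. Mural cell genes had 2 of 8 in each direction (25%), with the contractile proteins Mylk and Myh11 higher by 0.90 and 0.83 log2 (adjusted p = 3.6e-06 and 0.0033). The endothelial calls fell from 5 to 3 without neonate SNI array 4, and the mural calls from 4 to 2 without any one of adult SNI arrays 1, 5 and 6 and neonate SNI arrays 3 and 4. Fibroblast and meningeal genes had 1 of 9 higher (11.1%) and 2 lower (22.2%), with a median of -0.21 log2. The higher gene, Ogn, a small matrix proteoglycan, differed by 0.92 log2 (SE 0.22, adjusted p = 0.0040). Only Ogn was called without neonate SNI array 1. The part of these cells in the lower matrix genes was not tested. Tnnc2, a troponin of skeletal muscle, was 2.38 log2 higher in injured adults and 2.82 log2 higher in adult sham, while 14 of the 16 measured muscle genes never passed the filter level on an SNI array. Of 81 oxidative phosphorylation genes 11 were lower (13.6%, near the 11.9% of all genes) and 1 higher (1.23%), with a median of -0.11 log2. Of 40 ribosomal protein genes 2 were higher (5%) and 0 lower, with a median of 0.11 log2. The 12 oxidative phosphorylation calls fell to 6 without adult SNI array 3 or 5, and the 2 ribosomal calls to 0 without any one of adult SNI arrays 1, 3 and 4 and neonate SNI array 2.

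**Figure D5:**
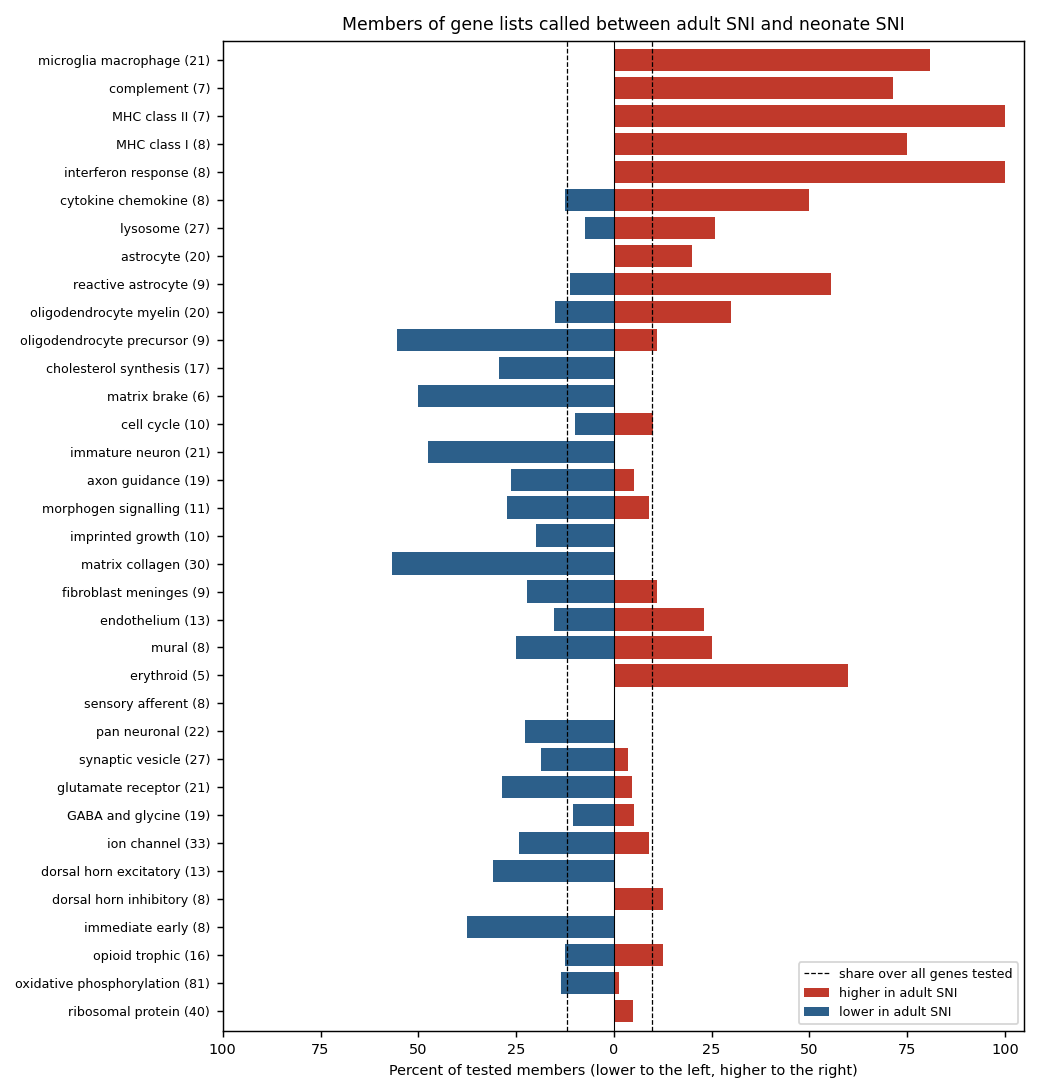
Percent of tested members of each gene list with at least 5 tested members that were higher (right, red) or lower (left, blue) in injured adults than in injured neonates at an adjusted p under 0.05; the number tested is in brackets and the dashed lines mark the shares among all genes, 9.66% higher and 11.9% lower. The immune lists lie far to the right of the line, while the collagen and matrix, oligodendrocyte precursor and immature neuron lists lie far to the left. Some immune members were tested only through injured adult arrays.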

How the data were processed

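RNA of rat dorsal horn was measured on Affymetrix Rat Expression 230A arrays, 6 for each of 4 groups. Log2 values per probe set were deposited by the authors, made with GCRMA per the submitters' processing notes; its version, background setting and any pooling of animals are not given in the sources used here. Many dim probe sets hold nearly the same low value, which bears on fold changes of dim genes. Numbered biological replicates are the unit of error, and if they were not separate animals the p-values measure technical spread.

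Control probe sets (57 of 15923) were left out. Probe sets above 3.84 log2, the 40th percentile, on at least 6 arrays were tested (9638). A gene above the level only on the 6 arrays of 1 injured group was thus tested with its direction already set. Limma 3.58.1 in R 4.3.3 fitted the 4 group means over 24 arrays, with Benjamini-Hochberg adjustment and a threshold of 0.05. SD and SE are over arrays. Symbols came from the platform annotation: 12783 probe sets had 1 gene, 312 several and 2771 none. Genes called after SNI had 265 other tested probe sets. Of these 249 had the same sign, 138 were called with it and 2 were called with the opposite sign. The fit was tested on simulated data. Arrays of the same number were not taken as pairs in the fit, and whether they were processed together is not given.

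Named genes were the 15 highest and 15 lowest called without overlap, the 12 highest by dependence on injury, up to 3 per direction in each of 43 lists, and index genes. Members and lists were chosen with earlier results of these data known. Alternatives changed the filter, the scaling, the moderation, the block and single arrays. Figures were drawn with matplotlib 3.10.9.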

Additional observations from a re-analysis of the deposited data

Results flagged for a closer look

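For 18 genes the age difference after injury differed from that in sham by the direct test (limma, adjusted p under 0.05). In log2, the size of that dependence was 5.15 for Cxcl13, 3.48 for Fcgr3a, 2.44 for Ly86, 2.42 for Fcgr2b, 2.19 for Plac8, 2.14 for Irf8 and 2.14 for Serpinb1a. It was 1.94 for Clec4a3, 1.86 for Tspo, 1.55 for Cd37, 1.40 for Rac2, 1.29 for Pycard, 1.12 for Plek, 1.10 for Cd53, 1.08 for Cyba, 1.06 for Grn, 0.99 for Ifi30 and 0.78 for Tmem176a. All were positive, which means a wider adult excess after injury than in sham. Those that passed the filter only on injured adult arrays had little room for a negative sign.

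In 17 of 241 groups of 6 SNI arrays examined for the genes named, 1 array lay apart from the rest by Dixon's test, which chance does in about 1 group in 20. Arrays numbered 3, which stood apart as a pair over all probe sets, held 7 of the 17. In adults array 3 was low for Dhcr7 (7.15 log2) and Igf2 (8.20 log2) and high for Notch1 (6.61 log2) and P2ry12 (8.30 log2). In neonates array 3 was low for Nid2 (7.28 log2) and high for Cyba (4.89 log2) and Ptprc (4.09 log2). Among the other adult arrays, array 5 was low for C3 (10.4 log2), array 1 low for Grm3 (8.05 log2) and array 6 high for Bst2 (5.96 log2). Among the other neonate arrays, array 1 was high for Bcan (12.6 log2), array 4 high for Serpinb1a (5.10 log2) and array 6 high for Homer1 (8.95 log2). Neonate array 6 was low for Stat2 (6.33 log2), array 2 low for Grn (9.82 log2), and array 5 low for Col4a2 (9.28 log2) and high for Tmem119 (5.62 log2).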

How the results depend on the processing

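The age difference after injury was called for 2010 probe sets and ran from 1722 to 2138 when single arrays were left out, for 1208 shared with sham from 1033 to 1201, for 1573 in sham from 1248 to 1658, and for 22 dependent on injury from 19 to 29. Testing for differences beyond 1.5-fold left 183, 89, 103 and 9 of these. A filter at the 60th percentile, or one asking for the level on all 24 arrays, left 6 injury-dependent probe sets each. Of the 18 genes 6 and 7 were then still tested, and Tmem176a was among them and lost its call (adjusted p = 0.053 and 0.0779), as did Cyba under the second (0.103). Fitting a replicate block gave counts of 2942, 1862, 2468 and 31. It changed calls of named genes after injury for Cx3cr1 (adjusted p = 0.00562), Slc6a5 (0.0193), Calca (0.0194) and Stmn2 (0.0437), and of the dependence on injury for Il18 (0.0174), Vgf (0.0174), Ctsh (0.0203) and Ptprc (0.0203), all gained. Same-numbered arrays correlated at 0.0349 to 0.644 between adult and neonate SNI, 5 of 6 over 0.1, at 0.0141 to 0.43 between the sham ages, at 0.1 to 0.559 between adult sham and SNI and at 0.237 to 0.61 between neonate sham and SNI. In the first of these 2 of 6 correlated best with their own number. Not every pair was over 0.1, so the numbers were not taken as pairs. All of these correlations were positive, though, and whether the numbers mark shared processing was not tested. Without the 4 arrays numbered 3, an alternative chosen after seeing the data, 2045 probe sets were called after injury (1782 shared with the 2010) and 24 depended on injury (19 shared with the 22). The median difference over all probe sets was -0.0425 log2 as deposited, -0.0123 centred and -0.0261 after quantile normalization. For the genes named, no alternative reversed a direction that was called: of their values after injury 5878 kept their side of the threshold, 325 lost it and 13 gained it, and for the dependence on injury 5974, 50 and 17. Array number and signal over background limit what dim genes can show.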
